A study of Rattus norvegicus with 12 samples.

Results

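The 7 genes described here encode cell-surface receptors through which hormones and local messengers raise or restrain lipolysis, the breakdown of stored triglyceride in fat cells. They are Adrb3, Adrb1, Gipr, Adora1, Ptger3, Npy1r and Adra2a, and were taken by name from the array's gene symbols. All 7 of the 7 were measured, each by 1 probe set, among 14506 named genes that could be tested. The study took the epididymal fat pad, a visceral white adipose depot, from 12 male rats of the Sprague-Dawley strain and hybridised whole-pad RNA of each rat to its own array (Affymetrix, Rat Gene 1.0 ST). The rats were fed (4 rats), fasted until phase 2 (4 rats) or fasted until phase 3 (4 rats), and the labels name no transgene or drug. As background, phase 2 of a long fast is the stage that runs mainly on fat and spares protein, and phase 3 is the late stage at which protein is used increasingly. Neither the length of the fasts nor the age of the rats is given in the labels.

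Lipolysis in the fat cell is set by cyclic AMP. Receptors coupled to the stimulatory G protein, such as the beta-adrenergic receptors for catecholamines, raise cyclic AMP, which activates protein kinase A and through it the lipases and the droplet protein perilipin. Receptors coupled to the inhibitory G protein, such as those for adenosine, prostaglandin E2, neuropeptide Y and, through alpha-2 receptors, catecholamines themselves, lower cyclic AMP and restrain lipolysis.

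Levels and changes below are on the log2 scale of the deposited values, so a change of 1 is a doubling or halving of signal. A gene was called at a Benjamini-Hochberg adjusted p below 0.05 in limma's test over all 14506 genes, and errors are standard errors (SE) of a change or standard deviations (SD) over the 4 rats of a group. Array medians over all probe sets lay between 6.026 and 6.1319, and phase 3 rat 3 had a narrower spread of values than the others, with an interquartile range of 3.29 against 3.53 to 3.73 on the other 11 arrays. Adipocyte markers were bright in this tissue, led by Lpl at a mean of 13.12 and Fabp4 at 12.99. Of 10 hepatocyte markers, only Alb (8.23) lay above 5.70, which bears on an extraction note in the labels that speaks of liver. Detection calls were not used here. As a rough guide to background, 53 olfactory receptor genes, which are mostly silent in fat, had a mean level of 3.76, a 95th percentile of 5.66 and a highest value of 6.03. Adrb1, Adra2a and Gipr lay close to that range, so their folds are not exact.

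Of the 7 receptors, Adrb1 and Adra2a were called in no comparison and Ptger3 and Npy1r in all 3. In phase 2 against fed rats, Gipr and Npy1r were higher and Adora1 and Ptger3 lower, while 3 receptors were not called. That was 4 of 7, where 25.2% of all genes were called, 9.66% as higher and 15.5% as lower. In phase 3 against fed rats, Npy1r was higher and Adora1, Ptger3 and Adrb3 lower, again 4 of 7, against 45.4% of all genes, 21.1% higher and 24.3% lower. Between the fasting stages, Npy1r was higher and Adrb3, Gipr and Ptger3 lower in phase 3 than in phase 2, 4 of 7 against 27.9% of all genes, 12.8% higher and 15.1% lower. Levels of the compared groups were fully separated for 4 of the 7 receptors in each comparison, as they were for 31% of all genes in phase 2 against fed, 41.9% in phase 3 against fed and 26.3% in phase 3 against phase 2. The median change over the 7 receptors was 0.12 in phase 2 against fed, -0.17 in phase 3 against fed and -0.34 in phase 3 against phase 2, beside medians of 0.01, 0.05 and 0.03 over all genes.

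**Figure D1:**
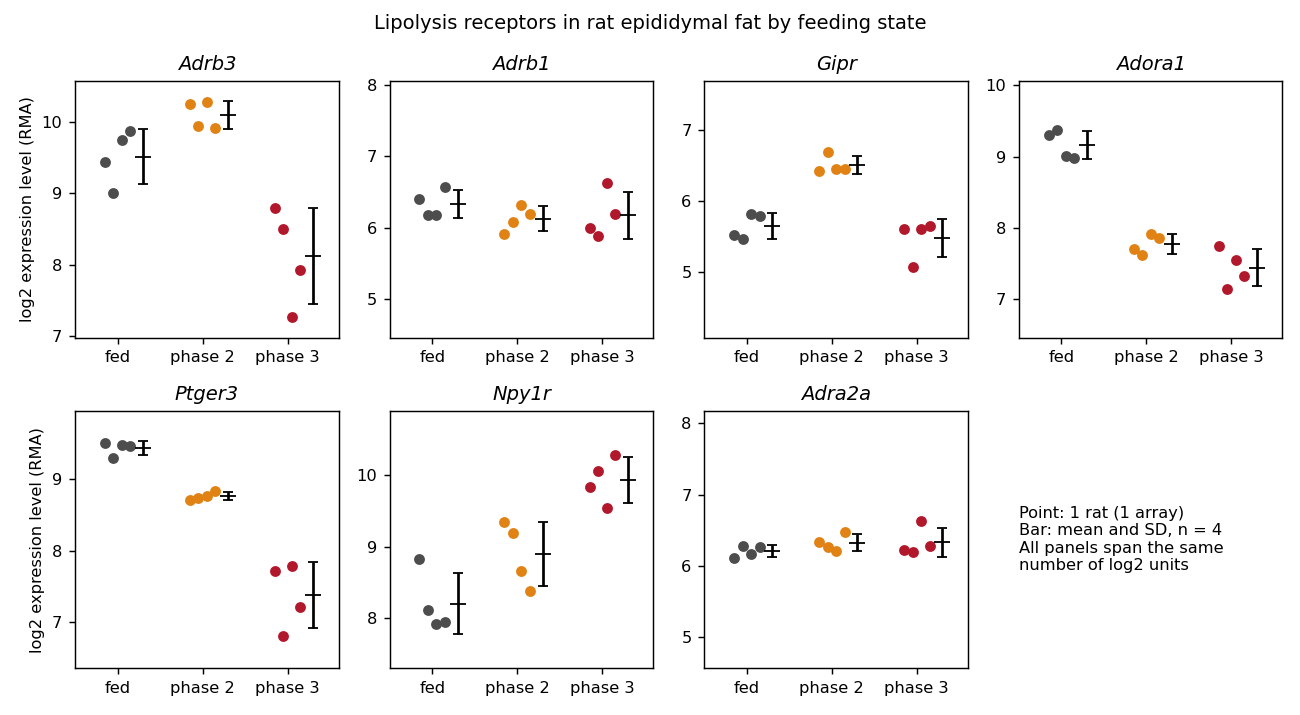
Log2 expression level (y axis) of the 7 receptors in fed, phase 2 and phase 3 rats (x axis), with 1 point per rat and the mean and SD of 4 rats beside them. Adora1 and Ptger3 were lower in every fasted rat than in every fed rat, the phase 2 rats lay above all others for Adrb3 and Gipr, and Npy1r was higher in every phase 3 rat than in every other rat.

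**Figure D2:**
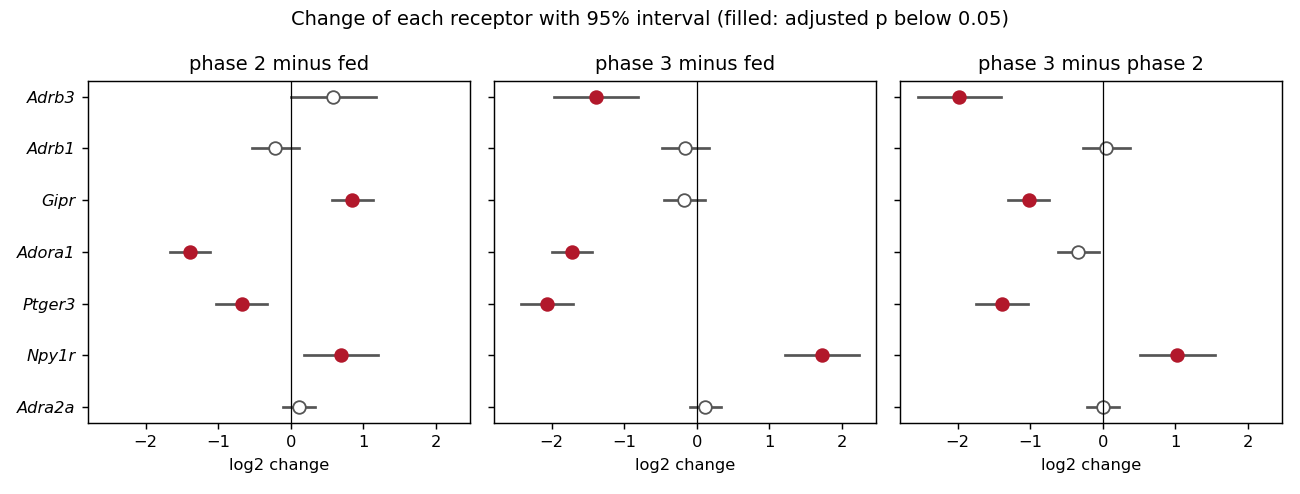
Change of each receptor (log2, x axis) in the 3 comparisons, with its 95% interval from the limma model and filled points for an adjusted p below 0.05. Adora1 and Ptger3 lie left of 0 in both fasting stages against fed, Npy1r lies right of 0 in all 3 panels, and Adrb1 and Adra2a have intervals that include 0 in each.

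Adrb3 encodes the beta-3 adrenergic receptor, the main stimulatory catecholamine receptor of white fat cells in rodents. Its level was 9.44, 9.0, 9.75 and 9.87 in the fed rats, 10.25, 9.95, 10.28 and 9.91 in the phase 2 rats, and 8.79, 8.50, 7.27 and 7.93 in the phase 3 rats. Every phase 2 rat lay above every fed rat, and every phase 3 rat lay below both groups, so the 3 groups did not overlap. Phase 3 was also the group with the widest scatter, spanning 1.52, where the fed group spanned 0.87 and the phase 2 group 0.37, and its lowest value was that of phase 3 rat 3.

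Adrb3 fell by 1.98 ± 0.27 (SE) in phase 3 against phase 2, a 3.93-fold difference (limma adjusted p = 9.15e-05), and fell by 1.39 ± 0.27 in phase 3 against fed rats, a 2.62-fold difference (limma adjusted p = 0.000694). With any 1 rat left out the change against fed lay between -1.61 and -1.10 and stayed called. Phase 2 differed from fed by 0.59 ± 0.27, with a 95% interval from 0.01 to 1.17, but missed the threshold (limma adjusted p = 0.138). The variance in the model was shared with the scattered phase 3 rats. With phase 3 rat 3 left out the adjusted p was 0.0436, and in a fit of only the phase 2 and fed rats it was 0.0234, with the same change. These were the only 2 of 21 alternatives that called the phase 2 change, and in the others the adjusted p reached 0.333.

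Adrb1, the beta-1 adrenergic receptor that also stimulates lipolysis, was called in no comparison. It had 6.40, 6.17, 6.18 and 6.57 in the fed rats, 5.91, 6.08, 6.32 and 6.19 in the phase 2 rats, and 6.0, 5.88, 6.63 and 6.19 in the phase 3 rats. The groups overlapped, and the highest of the 12 values was again that of phase 3 rat 3. The change was -0.21 (95% interval -0.53 to 0.11, limma adjusted p = 0.367) in phase 2 and -0.16 (-0.48 to 0.17, limma adjusted p = 0.415) in phase 3 against fed. Changes of more than 0.53 in size against fed rats lay outside both intervals. The intervals are for the array signal, which lay close to background here, so they do not show a steady level of Adrb1 RNA.

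Gipr encodes the receptor for the gut hormone GIP, which is coupled to the stimulatory G protein and is known in fat both for lipolysis when insulin is low and for lipid storage when insulin is high. It was at 5.52, 5.46, 5.82 and 5.79 in the fed rats, 6.42, 6.69, 6.45 and 6.44 in the phase 2 rats, and 5.6, 5.07, 5.6 and 5.64 in the phase 3 rats. All 4 phase 2 rats lay above all other rats, whereas phase 3 and fed rats overlapped. Gipr rose in phase 2, by 0.85 ± 0.132 against fed rats (limma adjusted p = 0.000327), and was lower in phase 3 than in phase 2, with a change of -1.02 ± 0.132 (limma adjusted p = 5.7e-05). In phase 3 against fed it differed by -0.17, with a 95% interval from -0.45 to 0.11 (limma adjusted p = 0.319). Its fed and phase 3 levels lay within the range of the olfactory receptor genes, so they were not shown to lie above background.

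Adora1 encodes the A1 adenosine receptor, through which adenosine released in the fat pad restrains lipolysis. Its level was 9.30, 9.37, 9.01 and 8.98 in the fed rats, 7.71, 7.62, 7.92 and 7.86 in the phase 2 rats, and 7.74, 7.15, 7.55 and 7.32 in the phase 3 rats. No fasted rat came within 1 log2 unit of the lowest fed rat, while the 2 fasting stages overlapped. Adora1 fell by 1.39 ± 0.131 in phase 2, a 2.62-fold difference (limma adjusted p = 5.2e-06), and by 1.72 ± 0.131 in phase 3, a 3.3-fold difference (limma adjusted p = 1.08e-07), both against fed. Between phase 3 and phase 2 the change was -0.34 ± 0.131, with a 95% interval from -0.62 to -0.05, and it missed the threshold (limma adjusted p = 0.0729). That call appeared when phase 3 rat 1, the highest of its group, was left out (-0.43, adjusted p = 0.0207).

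The sequence around the annotated start of Adora1 is shown because this receptor and Ptger3 both fell in each fasting stage. The windows run from 250 bases before to 50 bases after the RefSeq start in build GRCr8, 5′ to 3′ on the strand of the gene, and capitals mark matches to the motifs named below them. Adora1 lies at chr13:48246782-48247081 on the minus strand, Ptger3 at chr2:249264832-249265131 on the plus strand and Npy1r, the receptor that rose in both stages, at chr16:27813338-27813637 on the minus strand.
Adora1: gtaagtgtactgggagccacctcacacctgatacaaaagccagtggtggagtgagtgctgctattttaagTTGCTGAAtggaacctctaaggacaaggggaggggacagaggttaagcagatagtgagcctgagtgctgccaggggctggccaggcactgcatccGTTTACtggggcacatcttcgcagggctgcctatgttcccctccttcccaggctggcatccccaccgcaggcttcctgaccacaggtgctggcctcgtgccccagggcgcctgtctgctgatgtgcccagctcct
Ptger3: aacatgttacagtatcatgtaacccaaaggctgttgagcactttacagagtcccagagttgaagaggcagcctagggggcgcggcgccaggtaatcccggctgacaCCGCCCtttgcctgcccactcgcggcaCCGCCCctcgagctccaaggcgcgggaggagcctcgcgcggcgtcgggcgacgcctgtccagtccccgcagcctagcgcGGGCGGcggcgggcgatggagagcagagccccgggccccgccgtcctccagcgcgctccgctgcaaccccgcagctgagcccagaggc
Npy1r: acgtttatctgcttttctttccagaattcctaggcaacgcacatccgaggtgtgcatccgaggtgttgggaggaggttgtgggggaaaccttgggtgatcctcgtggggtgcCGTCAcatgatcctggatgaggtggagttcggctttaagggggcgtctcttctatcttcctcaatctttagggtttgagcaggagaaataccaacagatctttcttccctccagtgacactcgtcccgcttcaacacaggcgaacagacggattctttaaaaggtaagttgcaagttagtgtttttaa

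The 8 motifs searched on both strands were GTAAAC (FOXO core), AGAACA (glucocorticoid response half-site), AGGTCA (nuclear receptor half-site), TGACG (cyclic AMP response half-site), TTGCNNAA (C/EBP), CACGTG (E-box), CCAAT and GGGCGG (GC box). The Adora1 window held GTAAAC on the reverse strand at -85, a motif found in 8.11% of all 33469 windows, and TTGCNNAA at -180, found in 10.6%. The Ptger3 window held GGGCGG at -144 and -117 on the reverse strand and at -38 on the forward strand, where 33.1% of all windows hold at least 1 match. The Npy1r window held TGACG on the reverse strand at -138, found in 21.2% of windows. The windows of Adora1 and Ptger3 shared none of the 8 motifs. Ptger3 had 69.7% G or C and 32 CpG in its window, Adora1 59.0% and 5, and Npy1r 49.0% and 12, where the median over all windows was 51.7%. The windows of the uncalled receptors, not printed, had 70.7% for Adrb1, with TGACG and CCAAT matches, and 68.0% for Adra2a, with no match. These matches are descriptions of letters in 1 window per gene.

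Ptger3 encodes EP3, the prostaglandin E2 receptor that lowers cyclic AMP in fat cells, and its known splice forms were not told apart by the single probe set. Its level was 9.51, 9.30, 9.48 and 9.47 in the fed rats, 8.71, 8.74, 8.77 and 8.84 in the phase 2 rats, and 7.71, 6.80, 7.79 and 7.21 in the phase 3 rats. The 3 groups formed 3 separate steps downward with no overlap. Ptger3 fell by 0.67 ± 0.167 in phase 2 against fed (1.6-fold, limma adjusted p = 0.00845). It fell by 2.06 ± 0.167 in phase 3 against fed, which was 4.18-fold (limma adjusted p = 2.09e-07), and by 1.39 ± 0.167 in phase 3 against phase 2 (limma adjusted p = 3.16e-05). The steps differed in tightness, with an SD of 0.0921 for the fed group, 0.0554 for phase 2 and 0.461 for phase 3.

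Npy1r encodes the Y1 receptor for neuropeptide Y and peptide YY, which lowers cyclic AMP in fat cells and is also known for constriction of blood vessels. It was the only one of the 7 receptors called as higher in phase 3 against fed. Its level was 8.83, 8.11, 7.91 and 7.95 in the fed rats, 9.35, 9.19, 8.66 and 8.38 in the phase 2 rats, and 9.84, 10.06, 9.54 and 10.29 in the phase 3 rats. Every phase 3 rat lay above every other rat, whereas fed rat 1 lay above phase 2 rats 3 and 4. Npy1r rose by 1.73 ± 0.239 in phase 3 against fed, which was 3.32-fold (limma adjusted p = 3.46e-05), and by 1.03 ± 0.239 in phase 3 against phase 2 (limma adjusted p = 0.00482).

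In phase 2 against fed the rise of Npy1r was 0.70 ± 0.239 and only just passed (limma adjusted p = 0.0467). That call ended without fed rat 2, 3 or 4, without phase 2 rat 1, 2 or 3 and without phase 3 rat 1 or 2, with changes between 0.54 and 0.77 there. Over all alternatives the adjusted p lay between 0.00991 and 0.142, and 11 of 21 kept the call.

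Adra2a encodes the alpha-2A adrenergic receptor, which opposes the beta receptors when catecholamines bind it and is known to be sparse in rodent fat cells. It had 6.11, 6.28, 6.17 and 6.27 in the fed rats, 6.34, 6.27, 6.21 and 6.48 in the phase 2 rats, and 6.22, 6.19, 6.63 and 6.28 in the phase 3 rats. The groups overlapped throughout. The change was 0.12 ± 0.102 in phase 2 (95% interval -0.10 to 0.34, limma adjusted p = 0.457) and 0.12 ± 0.102 in phase 3 against fed (-0.09 to 0.34, limma adjusted p = 0.339). Centring each array on its own median raised the phase 3 change to 0.28 and its adjusted p was then 0.0399.

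The other receptors of the same kind moved in both directions. Of 19 other stimulatory receptors measured, 4 rose and 3 fell in phase 2 against fed, with a median change of 0.01. Mc2r, the receptor for the pituitary hormone ACTH and a strong stimulus to lipolysis in rodents, rose by 1.25 ± 0.124. Ptger2, a prostaglandin E2 receptor coupled to the stimulatory G protein, rose by 0.96 ± 0.0993, opposite in direction to Ptger3. Ghr, the growth hormone receptor, fell by 1.12 ± 0.148 (limma adjusted p of 9.67e-05 or less for these 3).

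Against fed, 5 of the 19 rose and 6 fell in phase 3, with a median of 0.02. The thyrotropin receptor gene Tshr fell by 2.66 ± 0.216, Ghr by 2.73 ± 0.148 and the secretin receptor gene Sctr by 1.90 ± 0.173, while Ptger2 was higher by 1.07. Mc2r differed by -0.06 ± 0.124 in phase 3 against fed (limma adjusted p = 0.731). Between the fasting stages 1 of the 19 rose and 5 fell in phase 3, among those that fell Mc2r (-1.31 ± 0.124) and Tshr (-2.46 ± 0.216). Mc2r, like Gipr, was higher in phase 2 than in either other group.

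Of 10 other inhibitory receptors, 3 rose and 3 fell in phase 2, and 3 rose and 4 fell in phase 3, each against fed. The insulin receptor gene Insr was higher in both stages (1.12 ± 0.0988 and 1.55 ± 0.0988), and insulin is the main hormone that suppresses lipolysis. Sucnr1, the succinate receptor, fell by 1.57 ± 0.141 in phase 2 and by 5.39 ± 0.141 in phase 3. Npr3, the clearance receptor that removes natriuretic peptides, changed by -1.39 ± 0.151 in phase 2 and by -3.08 ± 0.151 in phase 3. Adra2c, another alpha-2 adrenergic receptor, fell by 1.11 ± 0.118 in phase 2 and by 1.15 ± 0.118 in phase 3.

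A pair of inhibitory receptors for metabolites also rose in phase 2 and were lower in phase 3 than in phase 2. Hcar2, the receptor for the ketone body beta-hydroxybutyrate, rose by 0.84 ± 0.143 in phase 2 against fed (limma adjusted p = 0.000622) and was lower in phase 3 than in phase 2, with a change of -1.61 ± 0.143 (limma adjusted p = 2.24e-06). Unlike Gipr, it was also called as lower in phase 3 against fed (-0.76 ± 0.143, limma adjusted p = 0.0005). Ffar2, a receptor for short-chain fatty acids named after its values were seen, rose by 1.01 ± 0.162 in phase 2 against fed and changed by -1.40 ± 0.162 in phase 3 against phase 2. Between phase 3 and phase 2, 2 of the 10 inhibitory receptors rose and 4 fell. Of 3 alpha-1 adrenergic receptors, Adra1a changed by -0.52 and Adra1d by -0.44 in phase 3 against fed. The Adra1a call against fed ended without phase 3 rat 3 or fed rat 1 or 3, with quantile normalisation again, with cyclic loess and with centred arrays (adjusted p up to 0.101). The Adra1d call ended without phase 3 rat 1, 2 or 4 or fed rat 2 or 3 and with centred arrays (adjusted p up to 0.117). Adra1a also fell in phase 3 against phase 2, with a change of -0.93 ± 0.175 (limma adjusted p = 0.00115) that kept its call in all 21 alternatives. Adra1b, called in phase 2 (0.31), lost that call in 6 of 20 alternatives, with quantile normalisation again and without phase 2 rat 3 or 4 or fed rat 1, 2 or 3.

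**Figure D3:**
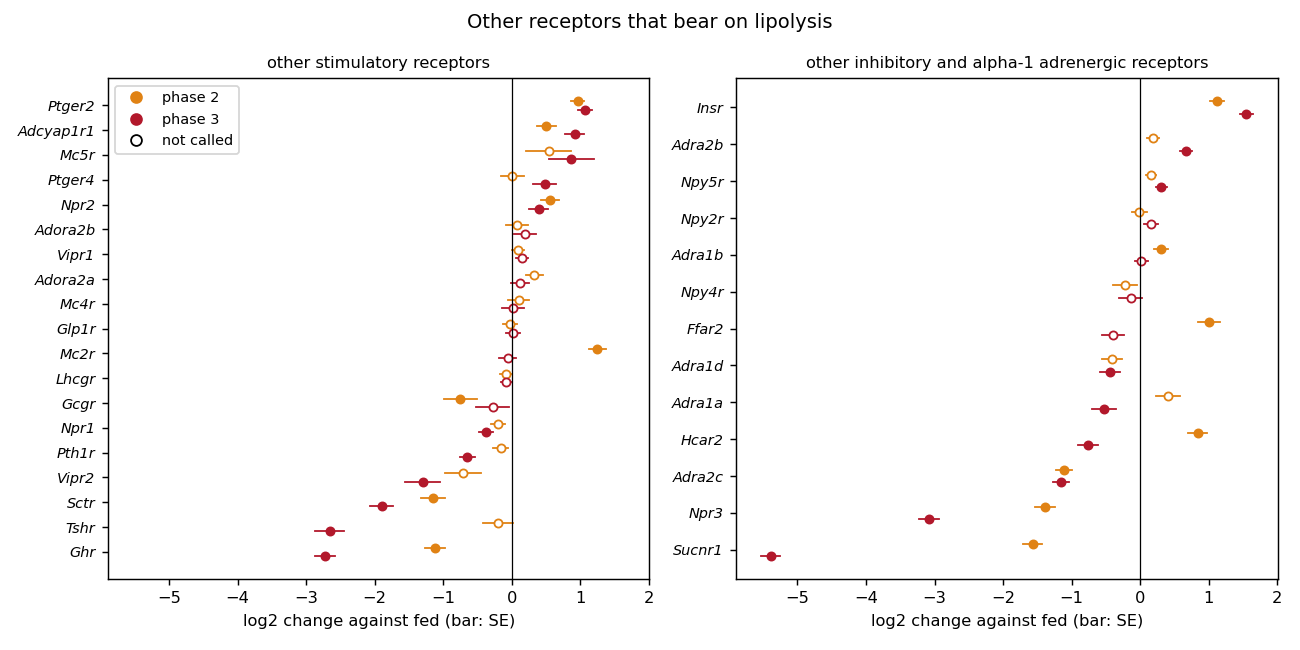
Change against fed (log2, x axis, with SE) of 19 other stimulatory receptors (left) and of 10 other inhibitory and 3 alpha-1 adrenergic receptors (right), in phase 2 and phase 3, with filled points for called genes. Sucnr1, Npr3, Ghr and Tshr lie farthest to the left in phase 3 (-5.39, -3.08, -2.73 and -2.66), and Mc2r, Ffar2 and Hcar2 lie right of 0 in phase 2 and left of it in phase 3.

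Genes that supply or remove the receptors' ligands were taken by ligand. Of 12 genes on the list for adenosine, none rose against fed, while 5 fell in phase 2 and 6 in phase 3, with medians of -0.15 and -0.36. Beside genes of adenosine formation and removal, the list holds the peptidase gene Dpp4, which is among those that fell in each stage. Dpp4 is counted again in the peptide list below and among the fibroblast and progenitor markers. Entpd2, an ectoenzyme that splits extracellular nucleotides, fell by 0.91 ± 0.115 in phase 2 and by 0.94 ± 0.115 in phase 3. Enpp3, another nucleotide-splitting ectoenzyme, fell by 0.58 ± 0.0811 in phase 2. Adk, the adenosine kinase that clears adenosine inside cells, fell by 1.56 ± 0.227 in phase 2 and by 1.18 ± 0.227 in phase 3. Alpl, the tissue-nonspecific alkaline phosphatase that can form adenosine outside cells, changed by -0.69 ± 0.196 in phase 3 against phase 2 (limma adjusted p = 0.016), a call that ended without phase 2 rat 1 (-0.52, adjusted p = 0.0519).

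For prostaglandin E2, the ligand of EP3, 1 of 10 genes rose and 3 fell in phase 2, and 2 rose and 5 fell in phase 3 against fed. Plaat3, the phospholipase abundant in fat cells that is known to feed prostaglandin E2 synthesis there, fell by 2.38 ± 0.16 in phase 3. Ptges, the inducible prostaglandin E synthase, fell by 0.82 ± 0.152 in phase 2 and by 1.5 ± 0.152 in phase 3. Slco2a1, which carries prostaglandins into cells for breakdown, rose by 0.97 ± 0.226 in phase 2 and by 0.78 ± 0.226 in phase 3, and Ptges3, a co-chaperone also described as a prostaglandin E synthase, rose by 0.65 ± 0.108 in phase 3. Ptges2 was lower by 0.42 in each stage, with a phase 2 call that ended without phase 2 rat 1 or 2 or fed rat 3 or 4.

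Of the peptide ligand list, Npy, the gene of the main Y1 ligand, rose by 0.90 ± 0.263 in phase 2 (limma adjusted p = 0.0214), a call that ended without phase 2 rat 2 or fed rat 3 or 4, and differed by 0.30 ± 0.263 in phase 3 against fed (limma adjusted p = 0.378). Dpp4, the peptidase that inactivates GIP and trims neuropeptide Y and peptide YY, fell by 1.03 ± 0.123 in phase 2 and by 2.13 ± 0.123 in phase 3. Adm, which encodes the vasodilator adrenomedullin, rose by 1.19 ± 0.202 and by 1.90 ± 0.202. In all, 2 of 8 genes of this list rose and 1 fell in phase 2, and 1 rose and 1 fell in phase 3. The median level of the list was 5.57 and its dimmest gene lay at 4.99, where the olfactory 95th percentile was 5.66. A missing call in its dim genes therefore does not show a steady level.

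Catecholamine genes showed 1 large change. Slc22a3, a transporter that takes up catecholamines outside nerves, fell by 2.19 ± 0.141 in phase 2 and by 2.55 ± 0.141 in phase 3 (limma adjusted p of 1.68e-07 or less). None of the other 7 genes measured was called against fed. The median level of the list was 5.15 and its dimmest gene lay at 3.93, where the olfactory 95th percentile was 5.66. For the dim genes of the list a missing call therefore does not show a steady level. Maoa was called in phase 3 against phase 2 at 0.20 ± 0.0711, but 15 of 21 alternatives ended that call, with adjusted p up to 0.121.

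Genes that switch off receptors after use were mixed. Of 14 such genes, 2 rose and 1 fell in phase 2, and 4 rose and 5 fell in phase 3 against fed. Arrdc3, an arrestin-like protein known to bind beta-adrenergic receptors, rose by 1.17 ± 0.128 in phase 2 and by 2.67 ± 0.128 in phase 3. Rgs2, which shortens G protein signals, rose by 1.42 ± 0.193 and by 1.45 ± 0.193, and Rgs16, of the same family, rose by 1.69 ± 0.155 in phase 3 against either other group. Gipc1, a scaffold that binds beta-1 receptors, fell by 0.76 ± 0.113 and by 0.64 ± 0.113, and the receptor kinase gene Grk5 changed by -0.50 ± 0.0924 in phase 3 against phase 2.

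**Figure D4:**
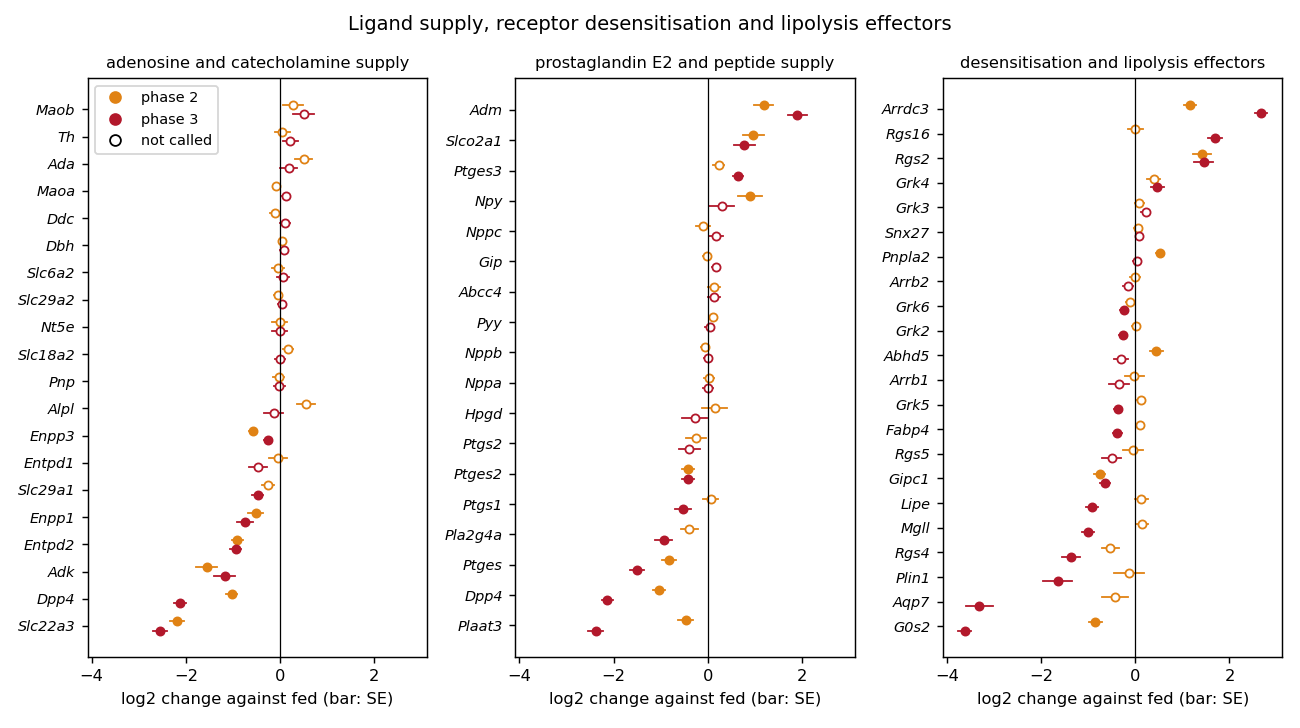
Change against fed (log2, x axis, with SE) of genes of adenosine and catecholamine supply (left), prostaglandin E2 and peptide supply (middle) and receptor desensitisation and lipolysis effectors (right), in phase 2 and phase 3, with filled points for called genes. Slc22a3, Dpp4, Plaat3, G0s2 and Aqp7 lie far to the left in phase 3 (-2.55, -2.13, -2.38, -3.62 and -3.31). Arrdc3 lies farthest to the right (2.67).

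Downstream of the receptors, 9 of 33 genes of G proteins and cyclic AMP rose and 5 fell in phase 2, and 9 rose and 11 fell in phase 3 against fed. Gnai1, an inhibitory G protein subunit through which Adora1, Ptger3 and Npy1r can signal, differed by -0.05 ± 0.0826 in phase 2 (limma adjusted p = 0.728) and fell by 1.11 ± 0.0826 in phase 3. Gnas, the stimulatory subunit, named after its values were seen, fell by 0.61 ± 0.0722 in phase 3 against fed. It was also called as lower in phase 2 against fed, with changes between -0.60 and -0.20 over the alternatives, of which 20 of 21 kept the call. With the mean of all its probe sets, its call in phase 3 against phase 2 ended (-0.10, limma adjusted p = 0.492). Prkaca, a catalytic subunit of protein kinase A, fell by 0.63 ± 0.0812 and by 1.00 ± 0.0812, and Prkar2b, the regulatory subunit typical of fat, fell by 2.32 ± 0.157 in phase 3. Akap12, which anchors protein kinase A near beta-adrenergic receptors, fell by 1.51 ± 0.0851 in phase 3 against fed. Pde7b, a phosphodiesterase that degrades cyclic AMP, rose in both stages, by 0.93 ± 0.0972 and 2.06 ± 0.0972. Pde3b, the phosphodiesterase through which insulin suppresses lipolysis, rose by 1.35 ± 0.19 in phase 2 and differed by 0.05 ± 0.19 in phase 3 against fed (limma adjusted p = 0.853).

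Of 8 lipolysis effectors, 2 rose and 1 fell in phase 2 against fed, 6 fell and none rose in phase 3 against fed, and all 8 fell in phase 3 against phase 2, with a median of -1.10. Lipe, Pnpla2, Plin1, Aqp7 and Fabp4, 5 of these 8, are also among the adipocyte markers described below, so the 2 lists are not separate sets. Pnpla2, which encodes the first lipase of triglyceride breakdown, was higher in phase 2 by 0.53 ± 0.0897, whereas the gene of its inhibitor, G0s2, changed by -0.85 ± 0.135. Abhd5, the activator of that lipase, was called at 0.45 ± 0.145 in phase 2, but leaving out any 1 phase 2 or fed rat ended the call (adjusted p up to 0.0869). The monoglyceride lipase gene Mgll changed in phase 3 against phase 2 by -1.16 ± 0.126, Lipe, the hormone-sensitive lipase (named after its values were seen), by -1.05 ± 0.132, and Aqp7, the glycerol channel, by -2.89 ± 0.28. Adrb3 changed by -1.98 in the same comparison.

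Markers of several cell types in the pad also changed, and in whole tissue fewer cells of a type and less RNA per cell cannot be told apart. Of 13 adipocyte markers, 3 rose and 1 fell in phase 2, and 1 rose and 11 fell in phase 3 against fed, with a median of -1.52, beside changes of -1.39 for Adrb3, -1.72 for Adora1 and -2.06 for Ptger3. Averaged over the list and set against the fed mean, adipocyte markers lay between -0.26 and -0.15 in the phase 2 rats and between -1.89 and -1.11 in the phase 3 rats. In phase 2, where Adora1 was already lower by 1.39, the adipocyte median change was 0.03. The part of adipocyte content in the phase 3 changes was not tested.

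Smooth muscle and pericyte markers moved with Npy1r in part. Of 13, 10 rose in phase 2 and 8 in phase 3 against fed, and 1 fell in each, with medians of 0.64 and 0.69. In phase 3 against phase 2, where Npy1r rose by 1.03, none of the 13 rose and 2 fell, with a median of -0.22. Among endothelial markers 7 of 10 rose and none fell in phase 2, and 5 rose and 1 fell in phase 3, each against fed. Fibroblast and progenitor markers fell in 5 of 11 cases in phase 2 and in 9 in phase 3, and 1 rose in each stage. Mesothelial markers fell in 4 and 5 of 7 cases and nerve and Schwann cell markers in 2 and 3 of 7, and none of either list rose. Macrophage markers rose in 1 and 3 of 11 cases and fell in 1 and 4. Of 4 erythroid markers, 1 rose in phase 2 and 3 fell in phase 3 against fed, and all 4 fell in phase 3 against phase 2, with a median of -1.34, in the comparison in which Adrb3 and Gipr were also lower. Their mean relative to the fed mean lay between 0.55 and 0.83 in the phase 2 rats and between -1.60 and -0.27 in the phase 3 rats, with phase 3 rat 3 lowest. T and NK cell markers were called in none of 9 cases in phase 2 and fell in 4 in phase 3 against fed. Mast cell markers rose in 2 and 1 of 6 cases and fell in 0 and 1, and 1 of 2 B cell markers fell in phase 3. Of 10 markers of epididymis and testis, none was called in phase 2 and 1 rose in phase 3. Median levels were 5.51 for T and NK cell, 5.20 for B cell, 5.53 for nerve and Schwann cell and 3.77 for epididymis and testis markers. Each of these medians lay below the olfactory 95th percentile of 5.66, so the counts for these lists include many genes near background. The part of these cell types in the receptors' changes was not tested.

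**Figure D5:**
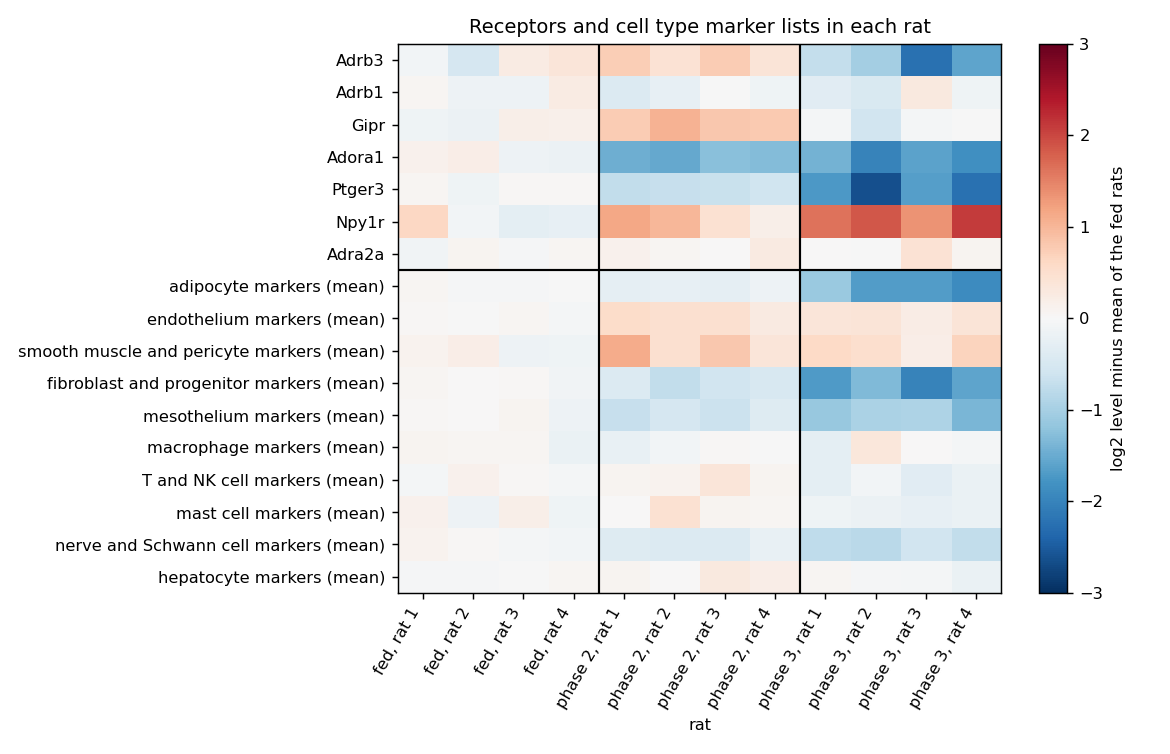
Log2 level minus the mean of the fed rats (colour) for the 7 receptors (upper rows) and for the mean of each cell type marker list (lower rows) in each of the 12 rats (columns). Adipocyte markers lie near the fed mean in phase 2 rats (-0.26 to -0.15) and below it in phase 3 rats (-1.89 to -1.11), while Adora1 is below it in both stages and Npy1r is highest in phase 3 rats.

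The genes closest to each called receptor were sought by the root mean square difference of mean-centred log2 levels over the 12 arrays, as a description. Ptger3 lay closest to Lgals1 (0.135), Reep5 (0.206) and Slc35b4 (0.218). Adora1 lay closest to Ahcyl2 (0.154), Dlat (0.182) and Mamdc2 (0.191), of which Dlat encodes a subunit of pyruvate dehydrogenase. Gipr lay closest to Nfatc4 (0.15), Fry (0.191) and Kcnip2 (0.195), and Npy1r to Scn3a (0.239), Spag1 (0.251) and Mertk (0.258). Adrb3 had the most distant neighbours, Lpar4 (0.312), Cxcl12 (0.345) and Rbp7 (0.349). Adora1 and Ptger3 differed from each other by 0.476, more than either differed from its 3 closest genes.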

How the data were processed

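The authors deposited log2 expression levels per probe set of the Rat Gene 1.0 ST array, made with RMA (background correction, quantile normalisation and probe summary), with GCOS and Affymetrix Expression Console 1.1, per the submitters' processing notes. RMA equalises the arrays' distributions, so a change is relative to the other genes of an array. The library version was not given in the sources used here, and no batch is named in the labels. The number of arrays limits the precision.

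Of 29215 probe sets, 15310 carried 1 gene symbol, 323 several and 13582 none in the platform annotation. The brightest probe set by mean over the 12 arrays stood for a gene, which left 14506 genes, of which 14481 matched a RefSeq gene of GRCr8. Promoter windows came from RefSeq (GRCr8) and 5 of the 7 receptors matched. All 12 arrays entered 1 model with a mean per group (lmFit and eBayes, limma 3.58.1, R 4.3.3), and p-values were adjusted by Benjamini-Hochberg over the 14506 genes. The 95% intervals are per gene and not adjusted. The model code was tested on simulated data with independent noise and far fewer changed genes than were called here. That test does not bear on the reliability of the calls. Python 3.11.15, pandas 2.3.3 and matplotlib 3.10.9 did the rest.

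The receptors and the lists around them were chosen with earlier results of these data known, and so support nothing as independent evidence. Of 265 list entries 245 were measured. From each list other than cell type markers, the text took up to 3 called genes with the smallest adjusted p per comparison, and Ffar2, Gnas and Lipe were named outside that rule, Plin1 only as a gene shared by 2 lists, and marker lists by their brightest genes. Alternatives were the normalisation, a filter on the dimmest 40% of genes, the variance model, the samples in the fit, the probe sets used, a replicate block and leaving out each rat. The comparisons of phase 2 and phase 3 with fed share the fed rats.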

Additional observations from a re-analysis of the deposited data

Results flagged for a closer look

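Single rats stood apart for a pair of receptors. Ptger3 was 9.30 in fed rat 2, where the other 3 fed rats lay between 9.47 and 9.51. Gipr was 6.69 in phase 2 rat 2, against 6.42 to 6.45 in the other phase 2 rats, and 5.07 in phase 3 rat 2, against 5.6 to 5.64 in the other phase 3 rats. In each case the gap to the nearest rat, as a share of the group's range, exceeded Dixon's 95% critical value, and chance gives such a gap in about 1 in 20 groups, of which 21 were examined. No call of Ptger3 or Gipr changed when any 1 rat was left out.

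The effect of fasting against fed differed between the stages for 4 receptors, by the test of phase 3 against phase 2 in limma. These are the calls of that comparison already given in Results, not a further test. The same test called 27.9% of all genes, so such a difference was not particular to the receptors. The difference was -1.98 for Adrb3 (-1.39 in phase 3 and 0.59 in phase 2), -1.39 for Ptger3 (-2.06 and -0.67), 1.03 for Npy1r (1.73 and 0.70) and -1.02 for Gipr (-0.17 and 0.85).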

How the results depend on the processing

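Each receptor has 1 probe set, so the alternatives on probe sets left its values unchanged and altered only the shared variance and the adjustment. Of 12 called changes of the receptors, 11 stayed called in the same direction under every alternative run (21, or 20 for Gipr, which is among the dimmest 40% of genes and was not tested under that filter). The exception was Npy1r in phase 2 against fed, at 0.70 with adjusted p = 0.062 with an intensity trend and robust prior, 0.70 with 0.0706 when all probe sets were tested, and between 0.54 and 0.91 with 1 rat left out. Receptors called as higher in phase 2 against fed numbered 2, and 1 under the dim filter (without Gipr), with the trend and with all probe sets, and 1 to 3 with 1 rat left out. Other changes gained a call. Adrb3 in phase 2 against fed was called in only 2 of 21 alternatives, with adjusted p up to 0.333 in the others. It was 0.59 in a fit of only the groups compared (adjusted p = 0.0234) and 0.41 to 0.70 with 1 rat left out (0.0436 without phase 3 rat 3). Adra2a in phase 3 against fed was 0.28 with centred arrays (adjusted p = 0.0399), which made 2 receptors higher there, and Adora1 in phase 3 against phase 2 was -0.43 to -0.24 with 1 rat left out (0.0207 without phase 3 rat 1). Uncalled changes in phase 3 against phase 2 turned sign with 1 rat left out, Adrb1 between -0.10 and 0.15 (without phase 3 rat 3 or phase 2 rat 1) and Adra2a between -0.10 and 0.06 (without phase 3 rat 3 or phase 2 rat 2 or 3). The cause was not tested.

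Centring arrays on their medians moves every change in phase 3 against fed up by 0.16. Genes higher in phase 3 against fed then numbered 6115, against 3066 as deposited, and 3115 in phase 3 against phase 2, against 1853. With all 29215 probe sets tested, named or not, 5222 probe sets were higher in phase 3 against fed, a count over more features that is not set against the count of genes. With centred arrays, the share of called genes that were higher was 69.6% in phase 3 against fed, where it was 46.5% as deposited. It was 53% against 38.4% in phase 2 against fed and 64.9% against 45.8% in phase 3 against phase 2. Of 84 results on other named genes, 71 kept their call or lack of call under all alternatives and none turned sign. With the replicate number as a block, no call of a receptor changed, with Npy1r in phase 2 at 0.70 (adjusted p = 0.0262), and 1361 genes were higher and 2178 lower in phase 2 against fed. Same-numbered rats correlated between -0.155 and 0.188 in their deviations and 2 of 12 correlated best with their own number, so the numbers were not taken to pair rats. Signals near background limit Adrb1, Adra2a and Gipr, and among the other named genes Adra1b and Adra1d.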
